A study of Homo sapiens with 2 samples.

Results

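Crosslink sites of hnRNPM were described in the genes of 3 growth factor receptors, IGF1R, EGFR and MET, in HMLE cells. The sites were chosen by position and strand: a listed site belonged to a gene when it lay on the plus strand and its middle fell inside the gene's GRCh37 span, here called the gene window. By this rule 174 of the 54373 listed sites were members, 113 in IGF1R, 55 in EGFR and 6 in MET. They made up 0.320% of the list and 0.461% of its summed height. The genes themselves were picked with the site list in view, so the numbers of sites per gene are given as a description and with no test. The gene spans came with the choice of genes and were not checked against a GRCh37 annotation.

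HMLE cells are human mammary epithelial cells that were immortalised in culture and are kept as an established line. They were wild type, received DMSO and were crosslinked with ultraviolet light, per the labels, and hnRNPM was precipitated with an antibody. There were 2 libraries, labelled as biological replicates of this 1 group, and 1 deposited site list that gave no value per library. The spread between replicates and the depth of each library are therefore unknown here, and there was no second condition to compare. Intervals of site densities (Poisson) and shares (Clopper-Pearson) below are 95% exact intervals that cover counting error only. They treat sites as independent, although sites of 1 gene often lie close together, so they may be too narrow. Median heights carry order-statistic intervals, with a coverage of 96.2% in IGF1R, 97.0% in EGFR and 96.9% in MET.

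All 3 genes encode receptor tyrosine kinases of the cell surface. IGF1R is the receptor for insulin-like growth factors, EGFR for epidermal growth factor and related ligands, and MET for hepatocyte growth factor. Once bound by ligand they signal through the RAS-MAPK and PI3K-AKT pathways and drive growth, survival and movement of epithelial cells, the mammary epithelium included. HnRNPM is a nuclear RNA-binding protein that takes part in alternative splicing and is known to bind GU-rich RNA, much of it in introns. In iCLIP, reverse transcription stops at the crosslinked base, and pile-ups of such stops are called as sites. The deposited list gave each site a whole number, its height, read here as the number of stops. It also gave an expected height, shared by all sites of 1 tag cluster, a tag cluster being read here as a run of overlapping reads. Neither heights nor numbers of sites were set against the amount of RNA, so they do not rank the strength of binding.

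IGF1R and EGFR carried many sites along much of their length, and MET carried few. The window of IGF1R, on chromosome 15 from 99192200 to 99507759, is 315.56 kb long and held 0.358 sites per kb (interval 0.295 to 0.431). That of EGFR, on chromosome 7 from 55086725 to 55275031, is 188.3 kb long and held 0.292 sites per kb (interval 0.220 to 0.380). That of MET, on chromosome 7 from 116312459 to 116438440, is 126.0 kb long and held 0.048 sites per kb (interval 0.017 to 0.104). The intervals of IGF1R and EGFR overlapped, and that of MET lay below both, and these differences were not tested. In distance, 1 site came every 2.79 kb of IGF1R, every 3.42 kb of EGFR and every 20.997 kb of MET. Summed height per kb was 8.04 in IGF1R, 7.09 in EGFR and 0.492 in MET, so that the density of IGF1R was 7.52 times that of MET in sites and 16.3 times in summed height.

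**Figure D1:**
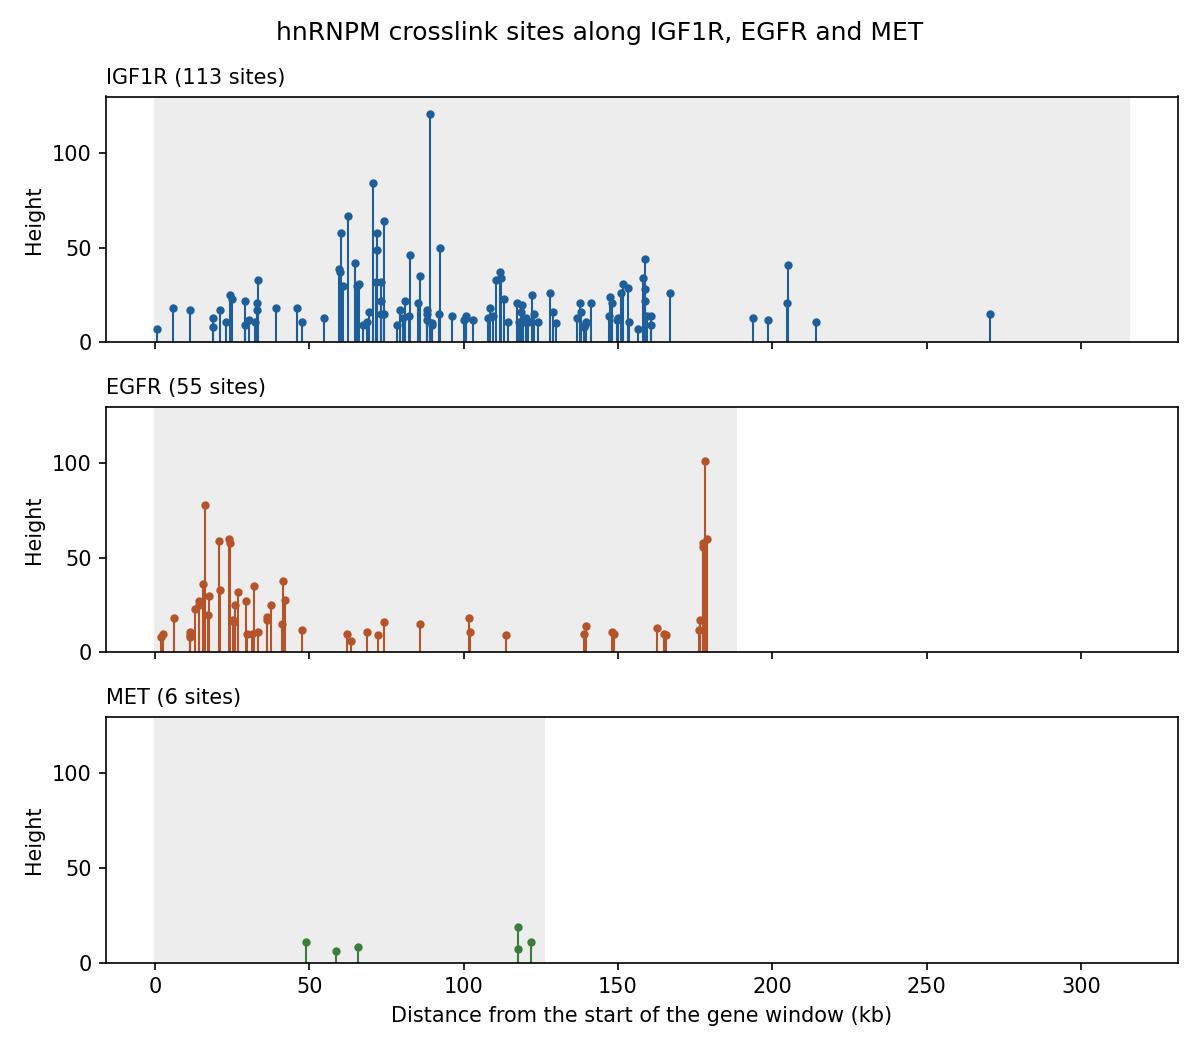
Each stem is 1 crosslink site, placed by its distance from the start of the gene window (kb) and as tall as its deposited height; grey marks the window. The 113 sites of IGF1R lie mostly in the first 50% of its window (99 sites), EGFR has most of its 55 sites at the front and its tallest, at 101, near the end, and the 6 of MET have heights of 6 to 19.

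None of the 3 windows held a site on the minus strand, and the members stood apart from other sites of the strand. The first IGF1R site lay 0.575 kb after the window's start, with a height of 7. The nearest plus-strand site before it, with a height of 6, was 4185 kb upstream of the window. The last IGF1R site, with a height of 15, lay 45.1 kb before the window's end, and the next one outside (height 10) was 312 kb downstream. For EGFR, the first site (height 8) lay 2.06 kb after the start and the last (height 60) 9.37 kb before the end. Its nearest sites outside had heights of 9 and 14 and were 6942 kb upstream and 8859 kb downstream. For MET, the first site (height 11) came only 49.1 kb after the start and the last (height 11) 4.07 kb before the end. The nearest sites outside MET had heights of 10 and 8 and were 141 kb upstream and 73.2 kb downstream. With 5 kb added at both ends, the numbers of sites were again 113, 55 and 6, as these distances to the nearest sites outside require. Shorter windows were not tried. The first sites of IGF1R and EGFR and the last of MET lay less than 5 kb inside, so a shorter window could lose members.

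In the GRCh38 annotation of GENCODE release 29, which was used for names, strands, gene lengths and neighbours and for no position, all 3 genes lie on the plus strand. The lengths of the windows differed from those of the annotated genes by 0.137% for IGF1R, 2.28% for EGFR and 0.012% for MET. Inside IGF1R this annotation has 2 further genes of the plus strand, AC118658.1 and the microRNA gene MIR4714, whose transcripts could not be told apart from that of IGF1R here. It has none inside EGFR or MET. The nearest coding genes of the strand are ARRDC4 and SYNM around IGF1R, VSTM2A and LANCL2 around EGFR, and CAV1 and CAPZA2 around MET. Exons and introns of the members were not assigned, and no sequence is shown, because no GRCh37 annotation or genome was used here.

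The sites of IGF1R were gathered in the front part of the gene. Of its 113 sites, 99 lay in the first 50% of the window (87.6%, interval 80.1 to 93.1), with 88.0% of the summed height. Cut into 10 equal parts of 31.6 kb, the window held 12, 13, 31, 23 and 20 sites in its first 5 parts. Parts 6 and 7 held 8 and 5 sites, part 9 held 1, and parts 8 and 10 held none. Part 3, from 63.1 to 94.7 kb after the start, was the fullest, with 27.4% of the sites and 36.9% of the summed height of the gene. The last site stood alone: 56.2 kb without a listed site separated it from its neighbour at 214 kb.

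EGFR had its sites at the front as well, but its tallest site near the end. In its first 50% there were 39 of 55 sites (70.9%, interval 57.1 to 82.4). The first 2 of 10 equal parts, each 18.8 kb long, held 13 and 15 sites, or 22.7% and 32.1% of the summed height. Parts 3 and 4 held 5 sites each, and parts 5 to 9 held 1, 2, 1, 4 and 3 sites, none taller than 18. Part 10 held 6 sites, and these carried 22.8% of the summed height. No part was empty, and the longest stretch without a listed site was 25.5 kb, from 114 to 139 kb after the start.

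The 6 sites of MET fell in 2 places. Sites with heights of 11, 6 and 8 lay 49.1, 58.5 and 65.8 kb after the start, and sites with heights of 19, 7 and 11 lay at 117.618, 117.647 and 121.9 kb. The first 3 of its 10 equal parts held no site, and the stretch of 51.8 kb between both places, 41.1% of the window, held none either. With 2 of 6 sites in the first 50%, the share was 33.3% (interval 4.33 to 77.7). This interval overlapped that of EGFR and lay below that of IGF1R, and the difference was not tested.

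**Figure D2:**
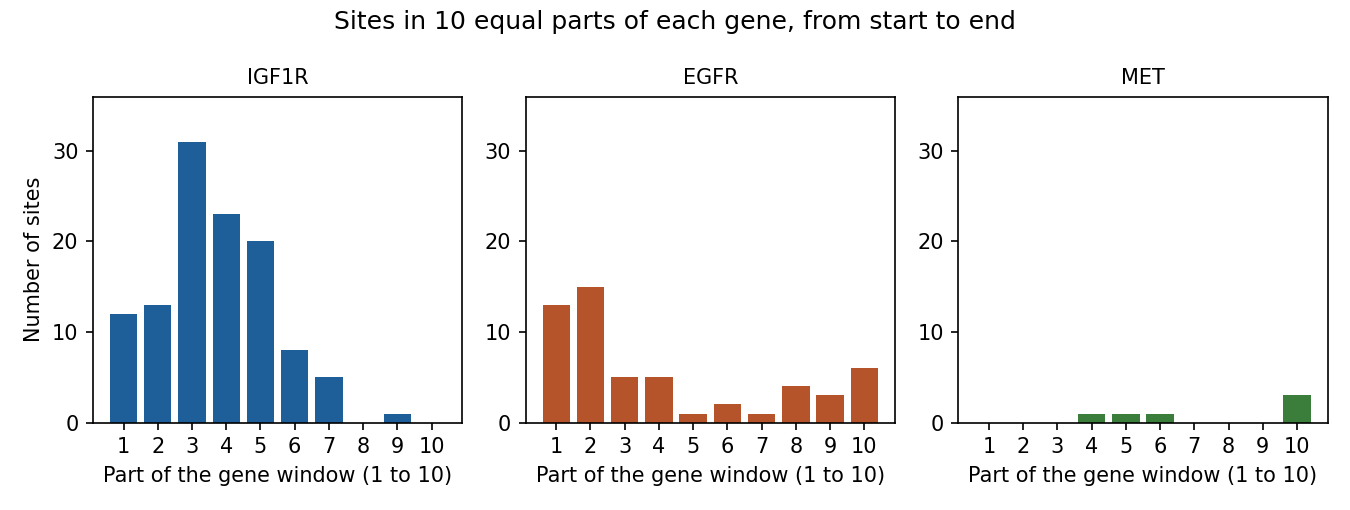
Bars give the number of sites (vertical axis) in each of 10 equal parts of the gene window, part 1 being at the start. IGF1R peaks at 31 sites in part 3, EGFR at 15 in part 2 with 6 in part 10, and MET has 3 in part 10 and at most 1 elsewhere.

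On a fixed grid of 10-kb bins of 1 strand, bins with 5 or more sites made up 13.4% of the 21871 bins that held any site in the list. In IGF1R 12 of the 21 bins with a site reached 5 sites, in EGFR 5 of 17, and in MET 0 of 3. The fullest bin of IGF1R ran from 99260001 to 99270000 on chromosome 15 and held 11 sites in 2 tag clusters, with a tallest site of 84. Only 175 bins of the list (0.800%) held as many. The fullest bin of EGFR, on chromosome 7 from 55110001 to 55120000, held 10 sites with a median height of 26, and 282 bins of the list (1.29%) held as many. The fullest bin of MET, from 116430001 to 116440000, held 3 sites, and 34.4% of the list's bins with a site held as many or more. Since the genes were chosen with dense regions in view, these shares describe them and were not tested.

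The typical site of IGF1R and EGFR was taller than the typical site of the list, and that of MET was not. The median height was 17 in IGF1R (order-statistic interval 14 to 21, quartiles 12 and 26, range 7 to 121) and 17 in EGFR (interval 12 to 25, quartiles 10.5 and 29, range 6 to 101). The list had a median of 11. In MET the median was 9.5, the interval (6 to 19) being the whole range of its 6 heights. A height of at least 17, the upper quartile of the list, was reached by 27.2% of all sites. It was reached by 57 of 113 sites in IGF1R (50.4%, interval 40.9 to 60.0), 28 of 55 in EGFR (50.9%, interval 37.1 to 64.6) and 1 of 6 in MET. A height of at least 50 was reached by 2.6% of all sites, by 7 sites of IGF1R (6.19%, interval 2.53 to 12.3), by 8 of EGFR (14.5%, interval 6.495 to 26.7) and by none of MET. Below the list's median were 43.9% of all sites, 12 of 113 in IGF1R (10.6%, interval 5.61 to 17.8), 14 of 55 in EGFR (25.5%, interval 14.7 to 39.0) and 3 of 6 in MET. EGFR thus had larger shares than IGF1R at both ends of the range around the same median, with intervals that overlapped. None of these differences was tested.

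**Figure D3:**
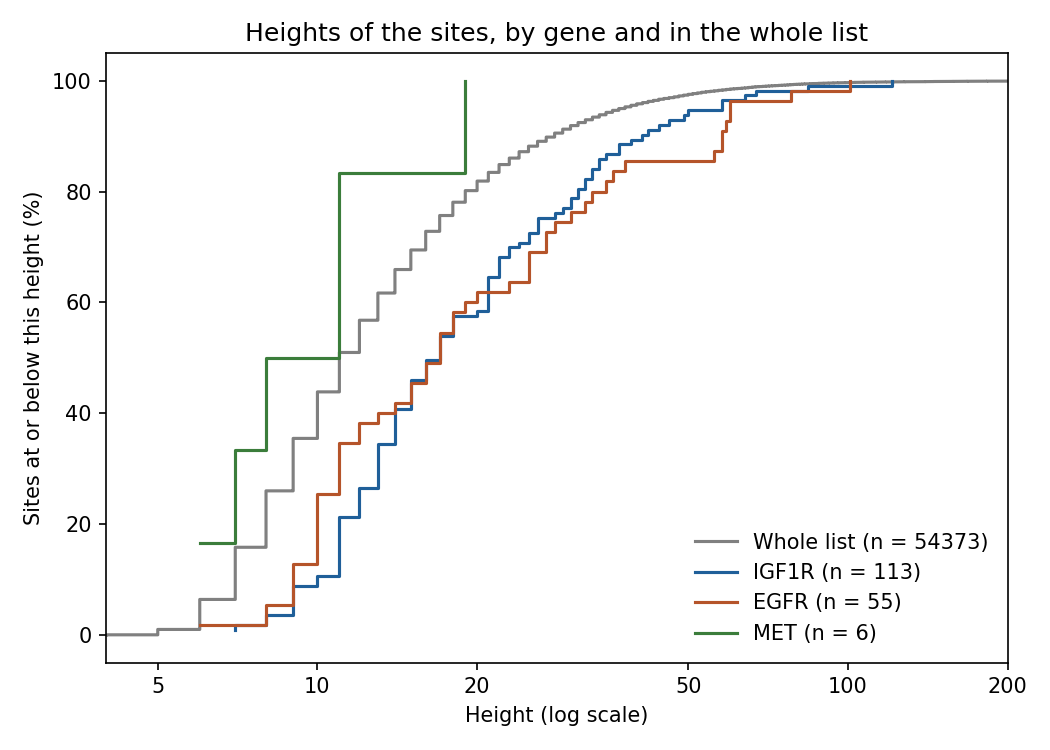
Each step curve gives the share of sites (%) at or below a height (log scale) for 1 gene or the whole list. The curves of IGF1R and EGFR run to the right of the list's and meet at their median of 17, and the 6 sites of MET, from 6 to 19, run to its left.

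This difference in height went along with the level of the tag clusters. The median expected height was 0.84 over the sites of IGF1R, 0.69 over those of EGFR, 0.36 over those of MET and 0.51 over the list. Height divided by expected height had medians of 23.1 in IGF1R, 22.0 in EGFR and 26.8 in MET, against 23.7 in the list. On that scale the 3 genes lay close to the list, and MET was no longer the lowest. The 6 ratios of MET ran from 16.7 to 52.8. No listed site had a deposited P above 9.99e-04, and how far such a limit sets the ratios of low clusters was not tested. Expected height is a value of the same clusters and not an independent measure, and the part of RNA abundance in these heights was not tested.

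The 5 tallest sites of IGF1R all lay between 60.1 and 89.1 kb after the start, in part 2 or 3 of the gene. The tallest, on chromosome 15 from 99281245 to 99281265, had a height of 121, and 121 sites of the list were at least as tall. Its height was 91.0 times the expected height, a ratio that 56 sites of the list (0.103%) reached. The other sites of its tag cluster had heights of 17, 15 and 12, so 1 position held most of the cluster's summed height of 165. The second, from 99262862 to 99262882, had a height of 84, and the third, from 99254583 to 99254603, a height of 67. The third was the only listed site of its tag cluster. The remaining sites of the 5, from 99266228 to 99266248 and from 99252293 to 99252313, had heights of 64 and 58. A further site, from 99264276 to 99264296, also had a height of 58 and is not counted among the 5. Together the 5 held 15.5% of the gene's summed height.

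In EGFR the 5 tallest sites came from both ends of the gene and held 26.8% of its summed height. The tallest, on chromosome 7 from 55264879 to 55264899, had a height of 101 and lay at 94.6% of the window's length. Only 185 sites of the list were as tall, but its expected height was also high, at 3.64, so that it was 27.7 times its expected height. The second, from 55102747 to 55102767, had a height of 78 and lay 16.0 kb after the start. It was 69.0 times its expected height, a ratio that 284 sites of the list (0.522%) reached. The sites from 55110600 to 55110620 and from 55265649 to 55265669 both had a height of 60, and that from 55107331 to 55107351 had one of 59. The tallest site of EGFR thus did not stand out from its own cluster as the second one did.

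The tallest site of MET, on chromosome 7 from 116430067 to 116430087, had a height of 19, which 21.9% of all sites reached. It was 52.8 times its expected height of 0.36, a ratio reached by 2.40% of all sites. The remaining 5 sites of MET were at or below the list's median height, with heights of 11, 11, 8, 7 and 6. The deposited P of MET's sites ran from 1e-100, held by the tallest alone, to 5.87e-04. At 1e-100, the smallest value in the list and that of 16.2% of all sites, there were 40 sites of IGF1R and 21 of EGFR. A deposited P of at most 1e-05 was held by 70.6% of all sites, 96 of 113 in IGF1R (85.0%), 47 of 55 in EGFR (85.5%) and 4 of 6 in MET.

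Sites of IGF1R and EGFR often shared a tag cluster. The authors' tag clusters that held a listed site numbered 53 in IGF1R, 29 in EGFR and 5 in MET. Clusters with 2 or more sites made up 23.3% of the list's clusters, 27 of 53 in IGF1R (50.9%, interval 36.8 to 64.9), 14 of 29 in EGFR (48.3%, interval 29.4 to 67.5) and 1 of 5 in MET. With 4 or more sites there were 2.73% of the list's clusters, 8 in IGF1R, 3 in EGFR and none in MET. The 8 clusters of IGF1R held 41 of its sites. The fullest cluster of IGF1R had 9 sites over 3425 nt, from 99262862 to 99266286. In order along the gene their heights were 84, 32, 49, 58, 32, 15, 22, 64 and 15. These sum to 371, or 14.6% of the gene's summed height, and 29 clusters of the list had as many sites.

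The fullest cluster of EGFR had 6 sites over 2949 nt, from 55110600 to 55113548, with heights of 60, 58, 17, 16, 25 and 32. Its cluster near the end, from 55264234 to 55265669, had 4 sites with heights of 56, 58, 101 and 60. This cluster alone held 20.6% of the summed height of EGFR, and its expected height of 3.64 was reached by 0.207% of the list's clusters. Among the 16 EGFR sites of the second 50% of the window, these 4 were the tallest, and the other 12 had heights of 9 to 18. In MET the only cluster with more than 1 site held the pair 29 nt apart, with heights of 19 and 7.

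Some sites lay close together in each gene, in MET only 1 pair, and in IGF1R and EGFR at shares near that of the list. The median distance between neighbouring sites was 980 nt in IGF1R, 1137 nt in EGFR and 7295 nt in MET. No site of the strand lay within 1 kb for 42.7% of the list's sites, 27 of 113 sites in IGF1R (23.9%), 13 of 55 in EGFR (23.6%) and 4 of 6 in MET. The next site was at most 50 nt away for 5.37% of the list's sites, for 10 in IGF1R (8.85%, interval 4.33 to 15.7), for 4 in EGFR (7.27%, interval 2.02 to 17.6) and for 1 in MET. The intervals of IGF1R and EGFR include the list's share. Among neighbours at most 59 nt apart, the upstream site was the taller in 58.4% of 3249 pairs of the list, pairs of equal height being counted as not taller. In IGF1R it was the taller in 9 of 11 pairs, for example 64 against 15 for the pair of sites 38 nt apart at 74.0 kb. In EGFR it was the taller in 2 of 4, and in MET in the 1 pair it had. Such pairs lay in 1 tag cluster each and include runs of 3 sites whose 2 pairs share the middle one, so the pairs are few and not independent, as at 88.1 kb in IGF1R with heights of 17, 15 and 12.

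By the numbers that the authors gave to tag clusters, stretches without a listed site still held such clusters. Cluster numbers never fell between neighbouring sites along any of the 46 strands of chromosomes (54327 pairs), so they were read as a running count of clusters along the strand; no source says so. Over the plus strand of all chromosomes the count rose by 0.852 per kb. Between the first and last site it rose by 958 in IGF1R (3.55 per kb), by 831 in EGFR (4.70 per kb) and by 466 in MET (6.40 per kb). Before the first site of IGF1R, back to the nearest site outside, it rose by 0.188 per kb, and after its last site by 1.56 per kb. Around EGFR the values were 0.237 and 0.190 per kb. Around MET, where the sites outside were nearer, they were 3.07 and 1.52 per kb. All these stretches reach to the first or last member and so include the ends of the windows. Before the first site of MET this was 49.1 kb of its window, and after the last site of IGF1R 45.1 kb. Clusters were thus several times as frequent between the sites of each gene as on the strand at large, and MET had the most per kb and the fewest sites. The strand at large includes DNA outside genes, so the comparison is not of like with like. The value of MET covers 72.9 kb of its window of 126.0 kb, while its sites were counted over the whole window. Of the cluster numbers from first to last site, 5.53% had a listed site in IGF1R, 3.49% in EGFR and 1.07% in MET. On the plus strand of the list the share was 0.832%. Each gene's stretch begins and ends at a listed site, which raises its share, most of all in MET, where only 5 clusters held a listed site. These differences were not tested.

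**Figure D4:**
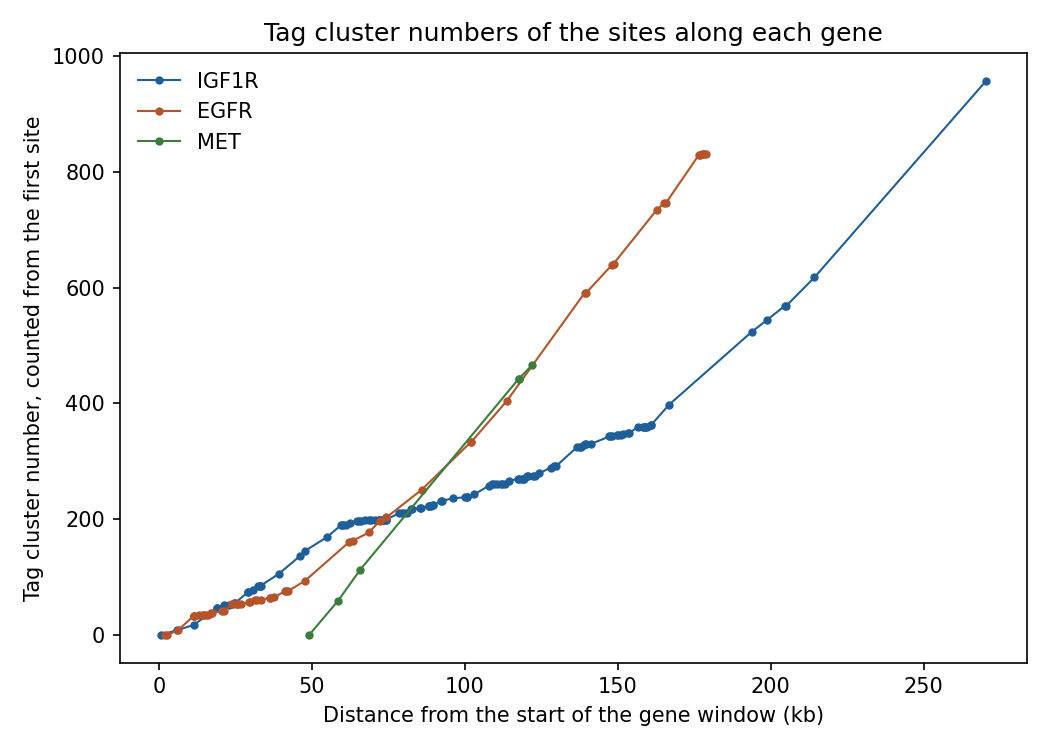
Points are the sites of each gene, with the tag cluster number counted from the gene's first site (vertical axis) against the distance from the start of the gene window (kb). The lines of IGF1R and EGFR rise slowly where sites are dense and more steeply behind, and that of MET, with 6 sites, rises steeply throughout.

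Within IGF1R and EGFR, the part with most sites had the fewest clusters per kb. From the first to the last site in the first 50% of the window, the count of clusters rose by 2.30 per kb in IGF1R and 2.995 per kb in EGFR. In the second 50% it rose by 5.33 and 6.46 per kb. The corresponding values in MET were 6.25 and 6.29 per kb. The longest stretches without a listed site had 340 further cluster numbers in IGF1R (6.05 per kb), 187 in EGFR (7.34 per kb) and 330 in MET (6.37 per kb). Such a count of clusters is no measure of depth. The numbers of reads in clusters were not used here, and their part in the pattern was not tested.

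The running numbers of the sites showed the same order of the genes as the listed sites, which are among them, so the order is partly built in. Between the first and last listed site, IGF1R spanned 546 such numbers, of which its 113 sites were 20.7%. EGFR spanned 246, of which 22.4% were listed, and MET 11, of which 54.5% were listed. In the whole list 24.2% of the numbers were present. The stretches of the genes begin and end at listed sites, which raises their shares, most of all in MET with its 11 numbers. If the numbers count the sites called before a threshold was applied, a reading that no source states, these were 2.02 per kb in IGF1R, 1.39 per kb in EGFR and 0.151 per kb in MET. These rates are over the stretch from first to last listed site, not over the window.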

How the data were processed

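The deposited file lists crosslink sites of 21 nt on GRCh37 (build per the submitters' processing notes). Its score, a whole number per site set by the authors, is called the height and equals the value marked PH in the site's name. The names also hold the authors' tag cluster, expected height (PH0) and p-value. The caller, its settings, the treatment of duplicates and whether the list pools both libraries are not given in the sources used here.

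Sites were placed by their middle base, and positions are 1-based. Densities are sites divided by window length. Medians carry binomial order-statistic intervals, which for 6 sites span the range. No test was made: there was 1 group and no value per library, and sites of 1 gene share a transcript. The genes, measures and named sites (the 5 tallest, the fullest 10-kb bin and the fullest cluster of each gene, the longest gap and the edge sites) were chosen with earlier results of these data known. Cluster and site running numbers, the 10 parts and the height limit of 50 were added after seeing the values. The planned motif, exon and intron, and pathway gene measures needed GRCh37 sequence or annotation and were not run. Counts of sites per window and in its first 50%, neighbours within 50 nt, merging of close sites and median heights were tested on simulated sites. The steps for shared clusters, running numbers, bins, the 10 parts, gaps and edge sites were not tested in this way. Tables were handled with pandas 2.3.3, intervals came from scipy 1.17.1 and figures from matplotlib 3.10.9, under Python 3.11.15 with numpy 2.4.6.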

Additional observations from a re-analysis of the deposited data

How the results depend on the processing

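Of 45 alternative values, 38 stayed within 1.5 times the reported value (densities) or within its interval (medians and shares). Medians of height over expected height are on another scale and were counted as moved whatever their value. Some of the 38 had little room to move. Adding 5 kb at both ends or asking for the whole site inside the window changed no number of sites, and the intervals of MET were wide. The 7 values that moved, 5 of them of MET, were these. MET held 0.024 sites per kb when only its 3 sites at or above the list's median height were kept, and 0.032 with a deposited P of at most 1e-05, which left 4. Among those 3 taller sites, the share of clusters with 2 or more sites was 0% and the share with the next site within 50 nt was 0%. As height over expected height, the median was 23.1 in IGF1R, 22.0 in EGFR and 26.8 in MET, on another scale by construction and so not comparable with the interval of heights. With 6 sites, each site of MET moves its values strongly. No paired analysis was possible because only 1 group was studied and its sites carry no library name. Leaving out a replicate was not possible either. Library depth is unknown here, so sites missed for lack of reads cannot be counted.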
